A study of Mus musculus with 7 samples.

Results

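The 9 genes described here encode proteins that hold epithelial cells together: E-cadherin (Cdh1) of the adherens junction, desmoplakin (Dsp) of the desmosome, and claudins 4, 6 and 7 (Cldn4, Cldn6, Cldn7), occludin (Ocln), JAM-A (F11r), ZO-1 (Tjp1) and cingulin (Cgn) of the tight junction. They were chosen by name, with earlier results of these data known, and each was found by its Ensembl ID among the 52636 genes of the count table. All 9 were among the 16248 genes that passed the expression filter. Their RNA was compared between pools of inner cell masses (ICMs) of mouse embryos given 4-hydroxytamoxifen for 4 h and pools given vehicle. The drug was meant to switch on the kinase ERK through a CRAF construct, and ERK activity was not measured in these data.

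In the blastocyst the outer trophectoderm is a sealed epithelium. E-cadherin binds neighbouring cells to each other in trophectoderm and ICM alike. Claudins and occludin are membrane proteins that form the tight junction strands, JAM-A is an immunoglobulin-like adhesion protein beside them, and ZO-1 and cingulin are cytoplasmic scaffold proteins that tie the strands to actin. Desmoplakin links desmosomes to keratin filaments. These junctions let the trophectoderm retain the fluid of the blastocoel, and the cells of the ICM lie inside that epithelium without forming one of their own.

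All embryos had the genotype Sox2Cre;CRAFR26, that is, a Cre under the control of Sox2, which is active in the epiblast, and a CRAF construct that 4-hydroxytamoxifen (tamoxifen below) activates. They were flushed at embryonic day 2.5 and kept for 24 h in KSOM medium, in both groups with the FGF receptor inhibitor PD173074 at 250 nM. The vehicle group (ethanol for 4 h, time label 0 h) had 3 libraries, clone4_1, clone4_2 and clone8_1, and the tamoxifen group (250 nM for 4 h) had 4, clone4_1, clone4_2, clone8_1 and clone8_2, where 4 and 8 are 2 embryonic stem cell clones of the construct. A further vehicle sample was discarded by the submitters at quality control. Each library came from 10 pooled ICMs freed of trophectoderm by immunosurgery and from 2 ng of RNA, and the labels do not say whether pools came from separate litters, so p-values measure the spread between pools. No library received tamoxifen without the construct. The construct is activated by its ligand, which RNA counts do not show.

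Libraries held 22981498 to 42294719 counts. The samples are labelled epiblast of embryonic day 3.5, and 10 of 10 trophectoderm markers were counted in all 7 libraries along with the naive epiblast markers. The trophectoderm marker Krt8 lay between 2250.0 and 3837 CPM (counts relative to library size, with TMM scaling). Vehicle clone8_1 stood apart: genes with short transcripts were low there, and the 508 protein-coding genes in the length class of Cldn7 (913 nt, the shortest member) deviated by a median of -0.88 on the log2 scale from the median library. In the other 6 libraries that median lay between -0.0022 and 0.18. Cldn7 itself deviated by -0.098 in vehicle clone8_1.

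Per kilobase of transcript, the most abundant members were Cldn4, Cldn7 and F11r, which encode membrane proteins of the tight junction. Cldn4 had a mean over the 7 libraries of 801 CPM per kb (607 to 1002), above 99.3% of all genes tested, and Cldn7 followed with 582 CPM per kb (401 to 646). Their ranges overlapped, but Cldn4 was above Cldn7 in 7 of 7 libraries. F11r came next at 209 CPM per kb (185 to 269), apart from Cldn7 above it and from Cdh1 below it at 156 CPM per kb (113 to 178). Cldn6 had 82.3 CPM per kb (38.4 to 136), Cgn 44.0 (34.0 to 55.0) and Ocln 33.3 (21.96 to 40.5). Neighbours in this stretch overlapped in range, Cdh1 with Cldn6 included. Ocln lay apart from the lowest pair, Dsp with 8.52 CPM per kb (6.50 to 10.2) and Tjp1 with 6.98 CPM per kb (4.46 to 8.34), which overlapped and changed order between libraries. Tjp3, which encodes the related scaffold ZO-3, had 26.1 CPM per kb (21.8 to 29.6), apart from the range of Tjp1.

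The promoters of 8 of the 9 members were matched by symbol in RefSeq (GRCm38.p6), with 10 start sites in all. Cdh1 had no match, so its promoter was not scanned. They are shown for the most abundant member, Cldn4, for F11r, which shares a motif with it, for Cldn6, which had the smallest p with tamoxifen, and for Ocln and Tjp1, whose groups did not overlap. Each stretch runs 5′ to 3′ from 250 bases before the RefSeq start up to that start or to the first annotated exon base of the gene. Capitals mark matches on either strand to 6 motifs: AP-1 (TGANTCA), the Snail-type E-box (CACCTG), AP-2 (GCCNNNGGC), TEAD (GGAATG), ETS (CCGGAAGT) and Grainyhead (AACCGGTT).
Cldn4, chr5:134946935-134947184 (minus strand, 250 bases): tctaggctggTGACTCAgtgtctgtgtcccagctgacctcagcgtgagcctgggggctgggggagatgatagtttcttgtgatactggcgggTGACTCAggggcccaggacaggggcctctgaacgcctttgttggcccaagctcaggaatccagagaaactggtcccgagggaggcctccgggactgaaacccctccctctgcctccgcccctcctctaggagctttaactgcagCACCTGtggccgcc
F11r, chr1:171437311-171437534 (plus strand, 224 bases): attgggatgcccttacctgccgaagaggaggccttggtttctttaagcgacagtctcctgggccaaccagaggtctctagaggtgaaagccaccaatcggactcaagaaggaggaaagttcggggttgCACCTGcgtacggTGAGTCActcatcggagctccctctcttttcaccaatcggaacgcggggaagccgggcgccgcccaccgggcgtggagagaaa
Cldn6, chr17:23679115-23679248 (plus strand, 134 bases): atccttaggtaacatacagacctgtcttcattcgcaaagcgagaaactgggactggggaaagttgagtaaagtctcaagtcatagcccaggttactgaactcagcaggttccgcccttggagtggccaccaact
Ocln, chr13:100552719-100552968 (minus strand, 250 bases): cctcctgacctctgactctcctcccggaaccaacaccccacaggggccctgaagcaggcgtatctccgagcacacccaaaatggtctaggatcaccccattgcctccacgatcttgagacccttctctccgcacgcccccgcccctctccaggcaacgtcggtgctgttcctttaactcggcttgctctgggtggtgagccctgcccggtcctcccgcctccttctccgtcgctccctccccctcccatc
Tjp1, chr7:65371245-65371494 (minus strand, 250 bases): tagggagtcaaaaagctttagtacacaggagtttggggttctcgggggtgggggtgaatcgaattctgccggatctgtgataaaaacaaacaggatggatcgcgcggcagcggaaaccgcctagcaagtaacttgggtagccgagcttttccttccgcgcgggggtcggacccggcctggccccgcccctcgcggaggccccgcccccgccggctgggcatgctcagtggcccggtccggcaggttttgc
The letters of AP-1, the factor made of Fos and Jun proteins whose genes respond to ERK, occur in the 250 bases before 6.75% of 32851 mouse start sites, and 0.338% hold them at least 2 times. Cldn4 held them at 240 and 158 bases before its start and F11r at 109 bases. The E-box letters, which Snail-family repressors of Cdh1 recognise, lay in the full 250-base window of 5 members (Cldn4, Cldn6, Cldn7, F11r and Ocln). They lay before 5 of the 10 member start sites, against 17.2% of all start sites. That share does not allow for base composition. The member windows held 51.2% to 72.4% G and C, against a median of 52.4% over all start sites. Cdh1 itself had no start site to scan. AP-2 letters lay before Dsp and 1 of the Ocln starts (13.7% of all start sites), TEAD letters before 1 start of Cldn7 (12.6%) and ETS letters before the other (2.88%). The matches of Ocln and Cldn6 lie past the first annotated exon base and so outside the stretches shown. No match overlapped another, the Grainyhead letters (0.116%) were in none of the windows, and a match describes letters, not binding.

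With tamoxifen, 8 of the 9 junction genes had a lower fitted level and Dsp a higher one, but none passed the test. The median log2 fold change of the members was -0.27, against 0.02 for all genes tested, of which 48.3% were below 0. At an adjusted p under 0.05 (edgeR, quasi-likelihood F-test, Benjamini-Hochberg), 0 of 16248 genes (0%) were called. Without adjustment, 970 genes (5.97%) had a p under 0.05, and Cldn6 was the only member among them, on the lower side, where 3.28% of genes lay against 2.69% on the higher side. DESeq2 called 4 genes and limma voom 0, no member among them. The 2 groups were fully separate in CPM for 8.45% of genes, with tamoxifen lower in 4.74% and higher in 3.71%. Of the members, Ocln and Tjp1 were separate in this way, both lower with tamoxifen, and none was higher. In bulk pools, fewer cells with a transcript and less of it per cell cannot be told apart.

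**Figure D1:**
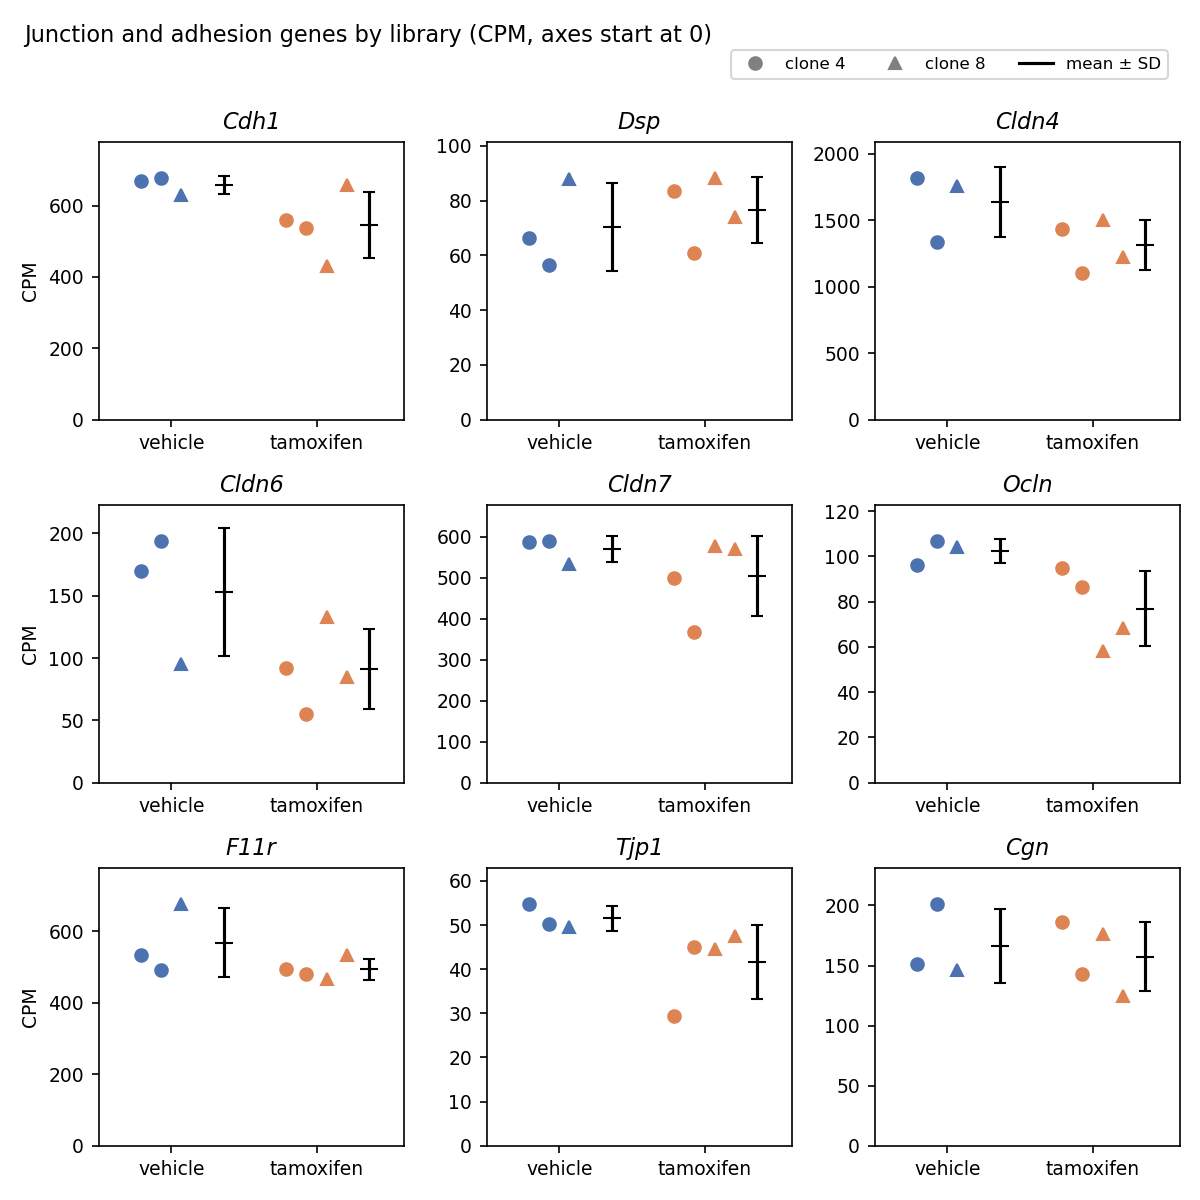
CPM of the 9 genes (y axes, each starting at 0) in each library by group (x axis), with circles for clone 4, triangles for clone 8, and the mean ± SD of each group as a black bar. Only Ocln and Tjp1 have all 4 tamoxifen libraries below all 3 vehicle libraries.

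Cldn6 (ENSMUSG00000023906, GRCm38 chr17:23679249-23682446, plus strand) encodes a claudin known from embryonic epithelia and had the lowest p of the members. Vehicle libraries had 169.9 CPM (clone4_1), 194 CPM (clone4_2) and 95.6 CPM (clone8_1). With tamoxifen it had 91.9 CPM in clone4_1, 55.0 CPM in clone4_2, 133 CPM in clone8_1 and 84.4 CPM in clone8_2. Both vehicle libraries of clone 4 were the highest of all 7, while vehicle clone8_1 lay below tamoxifen clone8_1, so the groups overlapped. Mean CPM was 153 ± 51.3 (SD, n = 3) with vehicle against 91.1 ± 32.2 (SD, n = 4) with tamoxifen, and the fitted log2 difference was -0.75 ± 0.31 (SE; edgeR adjusted p = 0.794). The unadjusted p was 0.0358 in that test. Without vehicle clone4_2 the change was -0.55 (unadjusted p = 0.1495), and without vehicle clone8_1 it was -1.01 (unadjusted p = 0.00505). Cldn6 also varied most among the members, 3.53-fold between its lowest and highest library, against 1.45-fold to 1.87-fold for the others.

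Ocln (ENSMUSG00000021638, GRCm38 chr13:100496507-100552718, minus strand) encodes occludin, a tetraspan protein of the strands that is not a claudin. Its vehicle values lay close together, at 96.2 CPM in clone4_1, 107 CPM in clone4_2 and 104 CPM in clone8_1. With tamoxifen it had 94.9 CPM in clone4_1, 86.3 CPM in clone4_2, 58.0 CPM in clone8_1 and 68.5 CPM in clone8_2. All 4 tamoxifen libraries lay below all 3 vehicle libraries, though clone4_1 by little. Mean CPM was 102 ± 5.48 (SD, n = 3) with vehicle against 76.9 ± 16.7 (SD, n = 4) with tamoxifen, and the fitted log2 difference was -0.41 ± 0.19 (SE; edgeR adjusted p = 0.794). Its unadjusted p was 0.0581 in edgeR and 0.0437 in limma voom.

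Tjp1 (ENSMUSG00000030516, GRCm38 chr7:65296165-65527781, minus strand) encodes ZO-1, the scaffold that binds claudins, occludin and JAM-A from the cytoplasm. It had 54.8 CPM, 50.2 CPM and 49.6 CPM in vehicle clone4_1, clone4_2 and clone8_1, and 29.3 CPM, 45.05 CPM, 44.6 CPM and 47.5 CPM in tamoxifen clone4_1, clone4_2, clone8_1 and clone8_2. The groups did not overlap, and tamoxifen clone4_1 lay far below the other 3 tamoxifen libraries, which were close to the vehicle values. The log2 fold change was -0.31 ± 0.20 (SE; edgeR adjusted p = 0.803) and -0.19 without tamoxifen clone4_1. Annotated genes overlap Tjp1, 2 on its strand and 1 on the other, and the strand setting of the counting is not given in the sources used here.

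Cldn4 (ENSMUSG00000047501, GRCm38 chr5:134945119-134946934, minus strand) and Cldn7 (ENSMUSG00000018569, chr11:69964779-69967885, plus strand) were the abundant claudins in both groups. Cldn4 had 1820 CPM, 1339 CPM and 1761 CPM in vehicle clone4_1, clone4_2 and clone8_1, against 1434 CPM, 1103 CPM, 1504 CPM and 1221 CPM in tamoxifen clone4_1, clone4_2, clone8_1 and clone8_2. Vehicle clone4_2 fell within the tamoxifen range, and the log2 fold change was -0.32 ± 0.17 (SE; edgeR adjusted p = 0.794). Cldn7 had 587 CPM, 589.8 CPM and 533 CPM in the vehicle libraries in the same order and 499 CPM, 366 CPM, 577 CPM and 570.2 CPM in the tamoxifen libraries. Its low value came from tamoxifen clone4_2, and both tamoxifen libraries of clone 8 lay inside the vehicle range. Its log2 fold change was -0.18 ± 0.18 (SE; edgeR adjusted p = 0.844), and -0.07 without tamoxifen clone4_2.

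F11r (ENSMUSG00000038235, GRCm38 chr1:171437535-171464603, plus strand) and Cgn (ENSMUSG00000068876, chr3:94760069-94786492, minus strand) encode the JAM-A adhesion protein and a scaffold bound to ZO-1. F11r had 535 CPM, 493 CPM and 677 CPM in vehicle clone4_1, clone4_2 and clone8_1 and 493 CPM, 479.7 CPM, 465 CPM and 535 CPM in the tamoxifen libraries in their order. Vehicle clone8_1 was the high library, and the log2 fold change of -0.20 ± 0.16 (SE; edgeR adjusted p = 0.810) became -0.07 without it. Cgn ranged from 146 to 201 CPM in vehicle and from 124 to 186 CPM in tamoxifen libraries. The fitted difference, -0.08 ± 0.20 on the log2 scale (SE; edgeR adjusted p = 0.940), turned positive when vehicle clone4_2 was left out (0.08) and when tamoxifen clone8_2 was (0.02).

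The other 2 members are Cdh1 (ENSMUSG00000000303, GRCm38 chr8:106603351-106670246, plus strand), for the adherens junction, and Dsp (ENSMUSG00000054889, chr13:38151294-38198577, plus strand), for the desmosome. Cdh1 was lower in 3 of 4 tamoxifen libraries than in any vehicle library. It had 668 CPM, 678 CPM and 629 CPM in vehicle clone4_1, clone4_2 and clone8_1, and 561 CPM, 536 CPM, 431 CPM and 657 CPM in tamoxifen clone4_1, clone4_2, clone8_1 and clone8_2. The vehicle values spread by 3.92% of their mean (SD) and the tamoxifen values by 17.0%, and tamoxifen clone8_2 was within the vehicle range. The log2 fold change was -0.27 ± 0.17 (SE; edgeR adjusted p = 0.803), and -0.17 without tamoxifen clone8_1. Dsp ranged from 56.4 to 88.0 CPM in vehicle and from 60.9 to 88.4 CPM in tamoxifen libraries, with a log2 fold change of 0.12 ± 0.20 (SE; edgeR adjusted p = 0.898). The groups of Dsp overlapped over nearly their whole range, and without vehicle clone4_2 its change was -0.01.

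**Figure D2:**
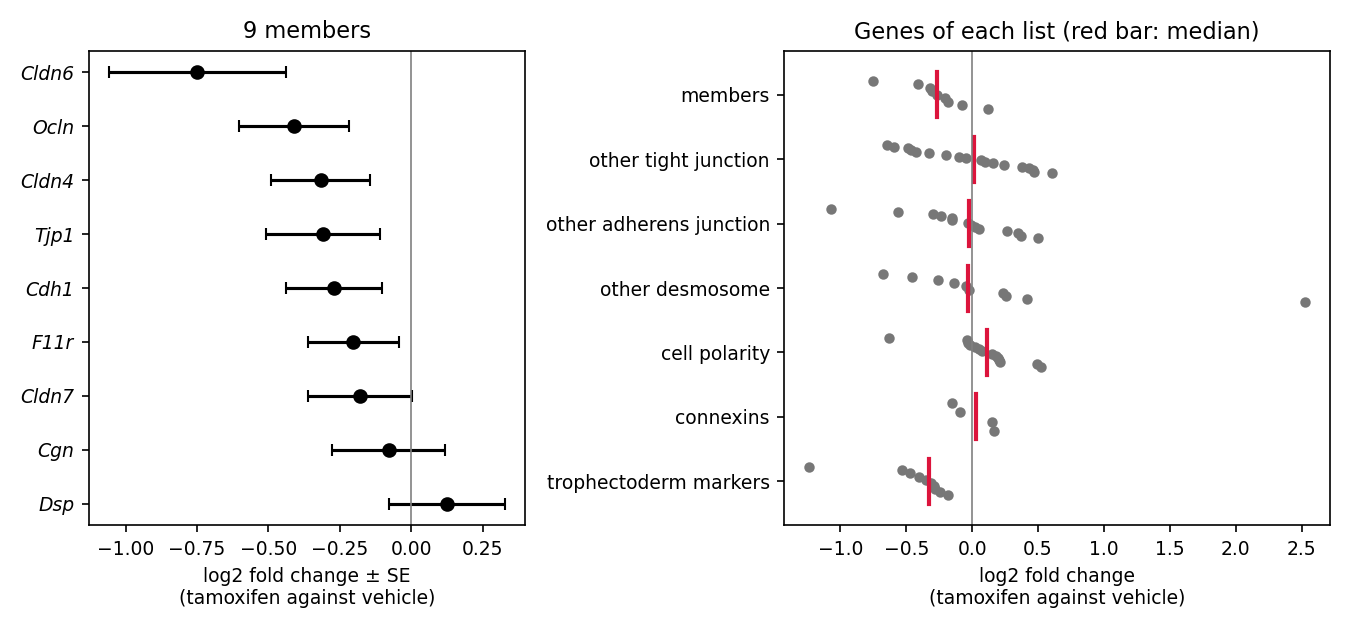
Left, log2 fold change ± SE of each member, tamoxifen against vehicle. Right, log2 fold change of the tested genes of each list (points) with the list's median (red bar), -0.27 for the members and -0.33 for the trophectoderm markers.

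Across libraries the members did not all follow 1 pattern. For 8 of 9 members the highest of the 7 libraries was a vehicle library and the lowest a tamoxifen one, Dsp being the exception in both. The share of all genes with this order was not computed, and the members were chosen with earlier results of these data known, so the count cannot be judged against it. Which tamoxifen library was lowest differed: clone4_2 for Cldn4, Cldn6 and Cldn7, clone8_1 for Cdh1, Ocln and F11r, clone4_1 for Tjp1 and clone8_2 for Cgn. Pearson's r between pairs of members over the 7 libraries ranged from -0.47 (Cdh1 with Dsp) to 0.82 (Cldn6 with Cldn7). Its median was 0.25, and 26 of the 36 pairs, which share libraries and depth, had an r above 0. Summed over the members, CPM ranged from 3708 to 4148 in vehicle and from 2875 to 3478 in tamoxifen libraries, and Cldn4 made up the largest part of each sum.

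**Figure D3:**
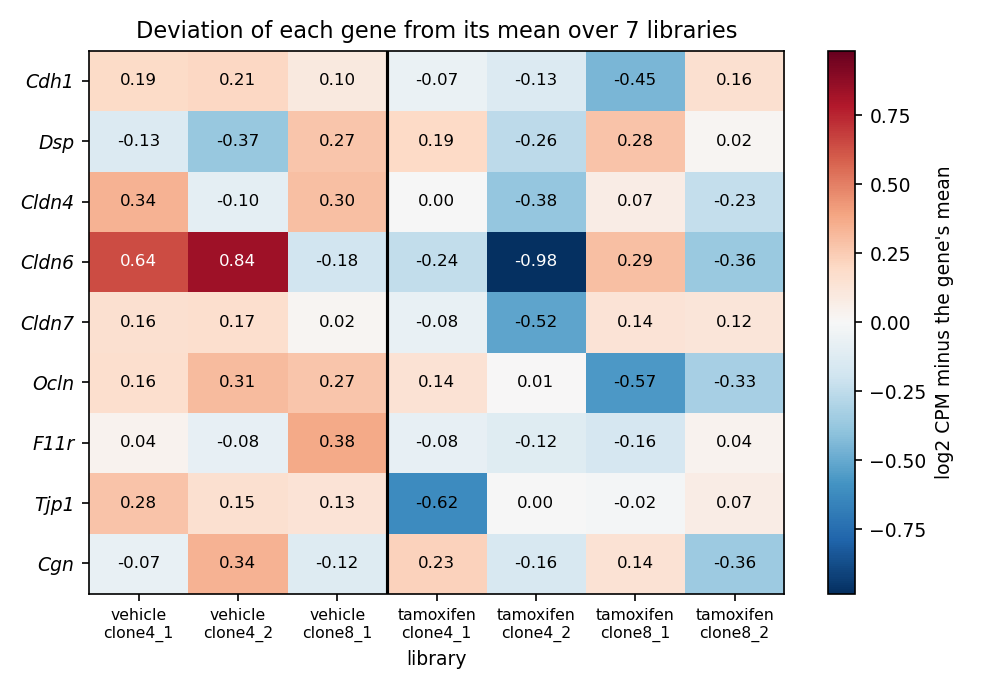
Log2 CPM of each member minus its mean over the 7 libraries (colour and printed value), with genes as rows and libraries as columns; the black line separates vehicle from tamoxifen. Cldn6 spans the widest range, from -0.98 in tamoxifen clone4_2 to 0.84 in vehicle clone4_2.

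None of the 10 trophectoderm markers passed the test either. All 10 (Elf3, Gata3, Id2, Krt7, Eomes, Krt8, Tfap2a, Cdx2, Krt18 and Hand1) had a log2 fold change below 0, with a median of -0.33, and 3 had an unadjusted p under 0.05 in edgeR, where 3.28% of all genes tested were lower at that level. None was at 0 in any library. Their summed level was 8530.4 to 11227 CPM in vehicle and 6546 to 9534 CPM in tamoxifen libraries. Their mean log2 CPM was 8.29, 8.17 and 7.99 in vehicle clone4_1, clone4_2 and clone8_1, and 7.80, 7.46, 8.08 and 7.57 in tamoxifen clone4_1, clone4_2, clone8_1 and clone8_2. The mean log2 CPM of the members was 7.95, 7.93 and 7.90 in the vehicle libraries and 7.71, 7.49, 7.74 and 7.67 in the tamoxifen libraries. Within each group the libraries had the same order by both means, with tamoxifen clone4_2 lowest in both. The groups overlapped in the marker mean, since tamoxifen clone8_1 lay above vehicle clone8_1. Whether trophectoderm cells were left in the pools, and whether they had a part in the members' differences, was not tested. Naive epiblast markers had a median log2 fold change of 0.37 (7 of 9 tested higher) and primitive endoderm markers 0.49 (6 of 9 tested higher). In edgeR, 1 of these epiblast and 2 of these primitive endoderm markers had an unadjusted p under 0.05, all higher. Of all genes tested, 2.69% were higher at that level.

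Other genes of the junctions showed no common shift. Of 64 listed genes outside the members, 60 were tested, 31 were higher and 29 lower with tamoxifen, 0 were called, and 4 (6.67%) had an unadjusted p under 0.05, close to the 5.97% of all genes. Median log2 fold changes were 0.01 over 18 other tight junction genes, -0.02 over 14 adherens junction genes, -0.03 over 10 desmosome genes, 0.11 over 14 polarity genes and 0.03 over 4 connexins. The most abundant gene by CPM was Epcam (1356 CPM) of the adherens junction list, Perp (239 CPM) of the desmosome list, Ezr (213 CPM) of the polarity list and Gja1 (1934 CPM) of the connexins. Epcam, an epithelial adhesion protein that binds claudin 7, had a log2 fold change of -0.30 ± 0.16 (SE; edgeR adjusted p = 0.794). The catenins that link E-cadherin to actin had values of -0.23 ± 0.16 (SE) for Ctnna1 and 0.37 ± 0.25 (SE) for Ctnnb1.

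Of the 60 tested junction genes outside the members, 2 had groups without overlap, against 8.45% of all genes tested. Jam2, which encodes JAM-B, a relative of the protein of F11r, was the one that was higher. It had 63.8 CPM, 79.8 CPM and 82.6 CPM in vehicle clone4_1, clone4_2 and clone8_1 and 116 CPM, 144 CPM, 109 CPM and 88.9 CPM in tamoxifen clone4_1, clone4_2, clone8_1 and clone8_2. The fitted log2 difference was 0.60 ± 0.20 (SE), at an unadjusted p of 0.0120 and an edgeR adjusted p of 0.794. Mpp5, for the polarity scaffold PALS1, was the one lower without overlap, with 26.6 to 39.8 CPM in vehicle and 19.1 to 23.8 CPM in tamoxifen libraries and a fitted log2 difference of -0.63 ± 0.21 (SE), at an unadjusted p of 0.0124 and an edgeR adjusted p of 0.794. Dsc2, a desmosomal cadherin, had -0.68 ± 0.28 (SE, unadjusted p of 0.0362) and Pard3, a polarity scaffold, 0.52 ± 0.23 (SE, unadjusted p of 0.0475), both with overlapping groups and an edgeR adjusted p of 0.794.

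The tamoxifen and vehicle libraries were also set side by side within each clone. In clone 4 alone, with 2 libraries per condition, 1264 of 16060 genes tested had an unadjusted edgeR p under 0.05, and 3 members were among them. Cldn6 differed by -1.32 ± 0.25 on the log2 scale (SE), at an unadjusted p of 0.00119 and an edgeR adjusted p of 0.550. The others were Cldn7 (-0.45 ± 0.17, SE, unadjusted edgeR p of 0.0339) and Cdh1 (-0.30 ± 0.13, SE, unadjusted edgeR p of 0.0460). In clone 8 the mean log2 CPM of Cldn6 was 0.15 higher with tamoxifen. Ocln had a difference in mean log2 CPM of -0.16 in clone 4 and -0.72 in clone 8. Cdh1 (-0.30 and -0.24) and Cldn4 (-0.31 and -0.38) had like differences in clone 4 and clone 8. Besides Cldn6, the sign differed between clone 4 and clone 8 for Cldn7 (-0.46 and 0.11), Cgn (-0.10 and 0.02) and Dsp (0.22 and -0.12). Clone 8 has 1 vehicle library, so its differences have no replicate check, and clone and that library cannot be told apart.

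**Figure D4:**
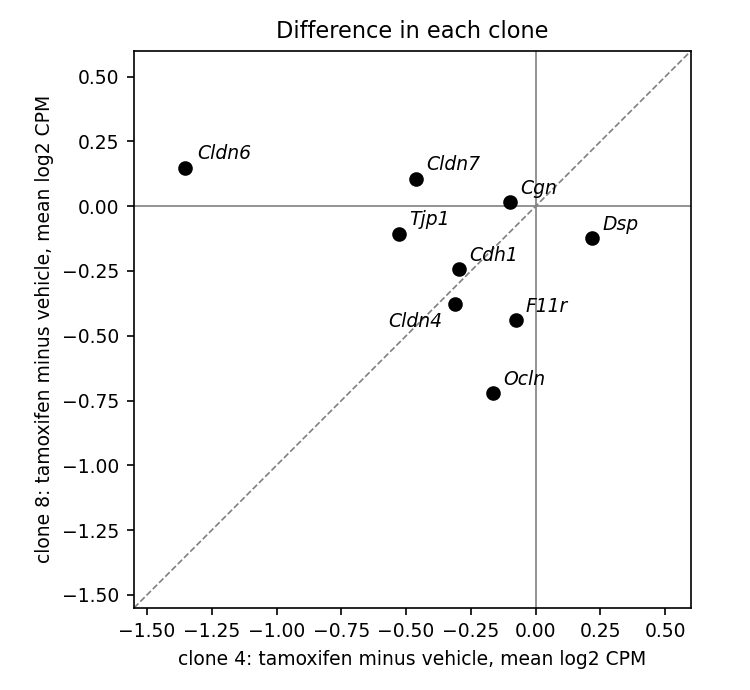
Difference in mean log2 CPM, tamoxifen minus vehicle, in clone 4 (x axis, 2 libraries against 2) and clone 8 (y axis, 2 against 1 vehicle library) for each member; the dashed line marks equal differences. Cldn6 lies farthest to the left, at -1.35 in clone 4 and 0.15 in clone 8.

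The interaction of clone and condition rests on vehicle clone8_1, the only vehicle library of clone 8, where genes with short transcripts were low. Clone and that library cannot be told apart in it. Nearly all genes called had a positive interaction, that is, a higher change in clone 8. The interaction was tested over all genes. It was called in 3.16% of them at an adjusted p under 0.05 and in no member, and 14.8% had an unadjusted p under 0.05. Cldn6 was the one member among the latter, with an interaction of 1.49 ± 0.48 (SE), an unadjusted p of 0.0130 and an edgeR adjusted p of 0.186. For the other members the unadjusted p ranged from 0.0810 (Cldn7) to 0.871 (Cldn4). Between clones, with condition in the model, 0% of genes were called and 3.13% had an unadjusted p under 0.05, no member among them in edgeR's test.

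Genes outside the members whose log2 CPM followed the mean of the members most closely over the 7 libraries were sought among 8044 genes of at least 10 CPM. Among the highest values of Pearson's r were those of Trim13 (0.993), Dpf3 (0.968), Hk2 (0.961) and Pdzd3 (0.960). Trim13 encodes a ubiquitin ligase and Hk2 a hexokinase. All 4 had separate groups with tamoxifen lower, as had the members' mean, so that difference comes with the way they were picked. Mean CPM of Hk2 was 247 ± 34.1 (SD, n = 3) with vehicle against 167 ± 24.9 (SD, n = 4) with tamoxifen. For Trim13 it was 59.0 ± 0.320 (SD, n = 3) against 42.7 ± 6.31 (SD, n = 4).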

How the data were processed

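RNA was measured in 7 libraries, grouped by their titles. The authors deposited 1 table of unnormalized counts, with Ensembl gene IDs as rows and libraries as columns. The submitters' processing notes name bcl2fastq 2.19.1, STAR 2.5.3a and build mm10; the counting program, annotation, strand setting and duplicate handling are not given in the sources used here. Without molecular identifiers, amplified reads are not independent molecules.

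Of 52636 genes, 52489 matched GENCODE M21 (GRCm38) by ID, which gave symbols and lengths (median over basic transcripts, protein-coding first). Counts were fitted over 16248 genes with edgeR 4.0.16 in R 4.3.3, with condition as the only term. Settings were TMM factors, filterByExpr by condition, the quasi-likelihood test and Benjamini-Hochberg adjustment, with an adjusted p under 0.05. The fit was tested on simulated counts that varied less between libraries than the real ones. That test therefore does not show how often changes would be found in these data. CPM uses TMM factors, and log2 CPM a prior count of 2. Alternatives used DESeq2 1.42.0, limma voom 3.58.1, other scaling and filters, clone or replicate number as a term, and fewer libraries. The interaction and clone tests used the same settings.

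All members were named. Of the junction lists, genes with an unadjusted p under 0.05, without overlap or with the highest CPM were named, along with genes from the 5 most like the members; some items that these rules pick are not reported here. Members and lists were chosen with earlier results of these data known.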

Additional observations from a re-analysis of the deposited data

Results flagged for a closer look

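Tjp1 in tamoxifen clone4_1, at 29.3 CPM, lay far from the other 3 tamoxifen libraries of its group: its gap to the next library was 0.842 of the group's range, above the critical value of Dixon's test for 4 samples. This test sets off about 1 in 20 groups by chance, and it was applied to the 4 tamoxifen libraries of each of the 9 members. The 3 vehicle libraries are too few for it.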

How the results depend on the processing

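Over 17 alternatives, 149 of 153 member values kept their sign and stayed above the threshold, and no member was called in any; the smallest adjusted p was 0.462 (Cldn6, without both libraries numbered clone8_1). The sign reversed for Cgn with the replicate block (0.025) and in 2 fits that left out 1 library each, 0.078 without vehicle clone4_2 and 0.019 without tamoxifen clone8_2 (range -0.19 to 0.078), and for Dsp without vehicle clone4_2 (range -0.014 to 0.31); the cause was not tested. The labels do not say whether same-numbered libraries are paired. In their deviations from the group means, same-numbered libraries correlated at 0.0078, 0.021 and -0.068. Differently numbered ones ranged from -0.085 to 0.062, so these values do not settle the pairing. With the block 0 genes were called, and Cldn6 had an unadjusted p of 0.129. Genes called for condition, 0 as reported, were 4 with DESeq2 (Zc3h7b, Ecm1 and Vwa5b1 higher, Tie1 lower) and 2 without both libraries numbered clone8_1 (Bhlhe40 and Tmprss2, both lower); these were named after their values were seen. The interaction, 514 genes as reported, gave 991 without a filter on low counts, 1023 with DESeq2, and 52 to 695 when 1 library was left out, the lowest without tamoxifen clone4_2. It could not be fitted without vehicle clone8_1. The clone comparison, 0 as reported, gave 28 without a filter and 13 with DESeq2. The members had at least 1045 counts in each library.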

Other observations

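The claudin family was looked at as a whole after its values were seen. Of 25 claudin genes in the table, 10 passed the expression filter, 4 had a mean of at least 10 CPM (Cldn4, Cldn7, Cldn6 and Cldn3) and 5 had no count in any library. Cldn4 held 61.8% to 72.7% of the family's CPM in the vehicle libraries and 64.1% to 70.7% in the tamoxifen libraries. Cldn3, which lies among the claudins that Clostridium enterotoxin binds, as Cldn4 does, had 29.8 CPM on average over the 7 libraries. The other 6 tested claudins were below that, from Cldn12 at 5.59 CPM to Cldn19 at 0.264 CPM. Of the 10 tested claudins, 7 had a log2 fold change below 0 and 3 above, and Cldn6 was the one whose unadjusted edgeR p was under 0.05. Cldn5, an endothelial claudin, had at most 10 counts in any library.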
